A study of Mus musculus with 12 samples.

Results

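The genes examined here act in the uptake, storage and export of cholesterol by the gut wall. They are Npc1l1, Abcg5, Abcg8, Soat2, Abca1, Abcg1, Nr1h3, Scarb1, Mylip and Lpcat3, 10 genes taken by symbol. All 10 stood in both deposited tables, among the 26121 genes that the tables share, and all 10 passed the filter on low counts. Sequencing covered 12 libraries of duodenal RNA of C57BL/6N mice, 3 in each of 4 groups. Chow mice received standard chow and HFD mice a high-fat diet, both without injections. HFD Vehicle mice received the high-fat diet and injections of 30% DMSO in corn oil. HFD PCN mice received the high-fat diet and pregnenolone 16α-carbonitrile (PCN), a steroid agonist of the mouse pregnane X receptor (PXR). Its dose was 50 mg/kg, given into the peritoneum once a day for 4 days. All mice started the diets at 6 weeks of age and kept to them for 18 weeks. HFD PCN therefore differed from HFD Vehicle in PCN, and from untreated HFD in PCN, its solvent and the injections together. Libraries are named by group and by the number that the labels give them. Nothing in the labels says that each number is a separate animal, so that the p-values may measure only the spread between these samples.

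Dietary and biliary cholesterol enters the enterocyte through NPC1L1 at the brush border and is esterified by ACAT2, the product of Soat2, for export in chylomicrons. Sterols that are not esterified can be pumped back into the lumen by the ABCG5/ABCG8 heterodimer or passed through ABCA1 at the basolateral side to apolipoprotein A-I, which forms HDL. The liver X receptors (LXRs), of which Nr1h3 encodes LXRα, sense oxysterols and drive the transcription of Abca1, Abcg1, Abcg5, Abcg8, Mylip and Lpcat3. PXR is the nuclear receptor that mediates the response to many foreign compounds and bile acids.

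The libraries held 4676718 (HFD Vehicle 55) to 20684369 (HFD PCN 5) counts, with a median of 15404357. The extraction protocol speaks of liver while the tissue label is duodenum. Vil1, a brush border protein, stood at 1172 to 2390 CPM (counts scaled to a library total of 1e+06) in the 12 libraries. The hepatocyte marker Alb stood at 0.107 to 1.16 CPM. The 7 of 10 hepatocyte markers found in both tables summed to between 1.67 and 4.77 CPM per library, and Apoh, Ahsg, Hpx, Trf and Serpina1a were under 1 CPM in all libraries. The share of mitochondrial ribosomal RNA was highest in HFD Vehicle 23 (33.65%) and HFD 4 (19.2%), with 8.694% to 17.44% elsewhere. These 2 libraries held the lowest level of 9 of the 10 genes, 5 in HFD Vehicle 23 and 4 in HFD 4, and the part of this in the results was not tested. HFD Vehicle 23 and 50 held Hsp90aa1, a heat shock protein gene, at 1832 and 1487 CPM, against 111 CPM in HFD Vehicle 55. In the other groups Hsp90aa1 lay between 62.4 CPM (Chow 8) and 424 CPM (Chow 17), with 121 to 226 CPM in HFD PCN. The part of this difference among the vehicle libraries in the results was not tested. As a check of the treatment, the PXR target genes Cyp2c55, Cyp2c29 and Ces2a rose after PCN by log2 fold changes of 6.18, 5.42 and 3.83 (edgeR adjusted p = 0.0432, 0.0227 and 0.0165). The log2 fold change was 3.83 for Cyp3a11 and 1.34 for Abcb1a (edgeR adjusted p = 0.200 and 0.231).

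Levels by library and by group are given below as CPM scaled with TMM factors over all 12 libraries. Per kilobase of exon, which allows genes to be compared, Npc1l1 led in Chow with a mean of 99.1 CPM per kb, followed by Abcg5 with 79.2. Soat2 (48.2), Abcg8 (47.3) and Lpcat3 (41.9 CPM per kb) formed a middle group in Chow. Abca1 stood at 12.5, Nr1h3 at 10.7, Scarb1 at 3.90, Mylip at 2.14 and Abcg1 at 0.458 CPM per kb there. In HFD PCN the level of Abca1 was 40.4 CPM per kb, next to Soat2 at 45.3 and Lpcat3 at 52.4 CPM per kb. Abca1 was also the most variable of the 10 genes over the 12 libraries, with an SD of log2 CPM of 0.737, which exceeded that of 92.6% of genes. Scarb1 followed with an SD of 0.683, and Nr1h3 was the least variable with 0.200, a value larger than that of only 11.5% of genes.

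**Figure D1:**
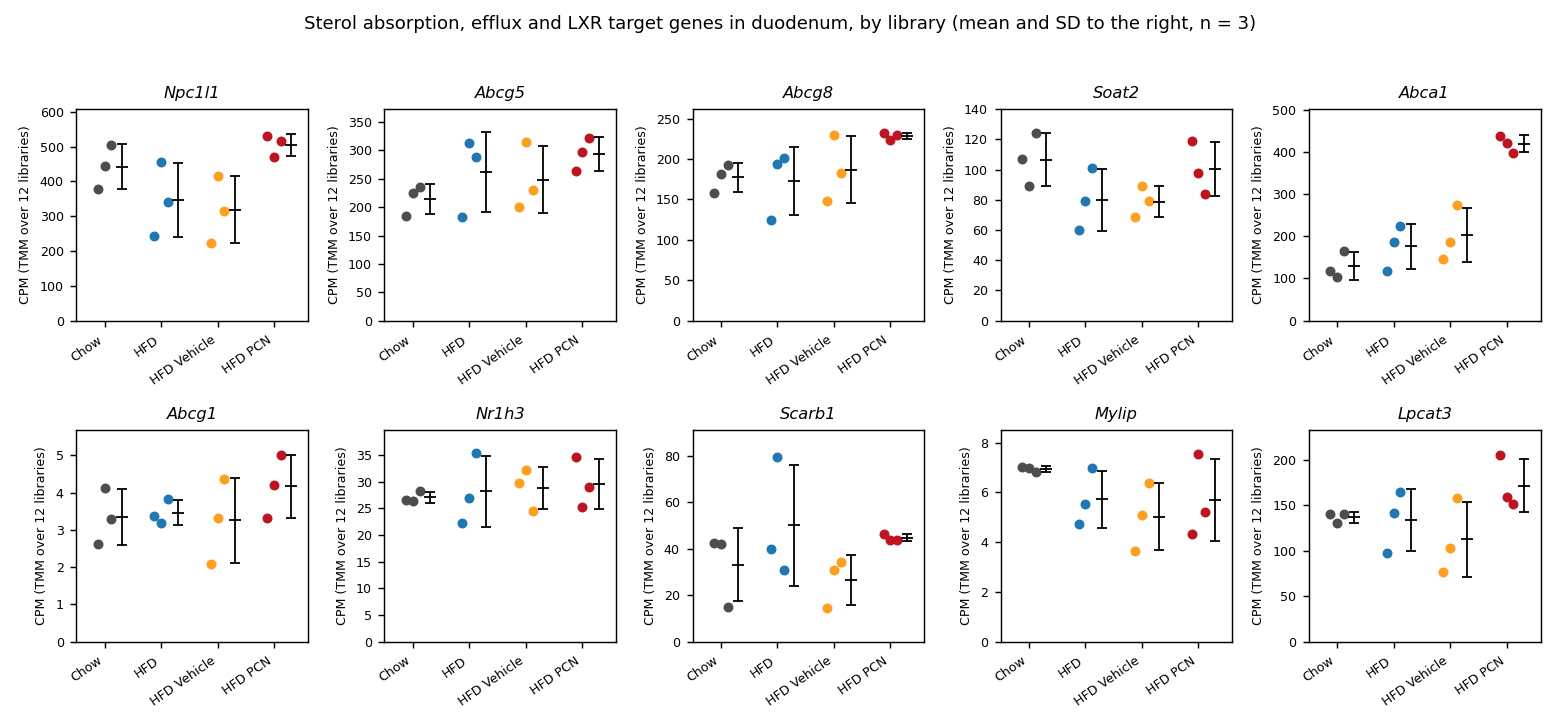
CPM of each of the 10 genes (vertical axes, from 0, TMM over 12 libraries) in the Chow, HFD, HFD Vehicle and HFD PCN groups. Each point is a library, and the bars to the right of the points show the mean and SD (n = 3). Abca1 lies at 398 to 438 CPM in HFD PCN and at or below 273 CPM in the 9 other libraries.

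On the high-fat diet, none of the 10 genes changed against Chow in edgeR's quasi-likelihood test at an adjusted p under 0.05. The same rule called 10 of 15278 genes, or 0.0655%. No member was past an unadjusted p of 0.05 either, where 10.3% of all genes were, and DESeq2 called 0 of the 10 and 0.833% of all genes. In no member did the Chow and HFD libraries stand apart without overlap, against 16.3% of all genes. Fold changes were positive for 5 of the 10, and their median log2 fold change was 0.006, beside 0.005 over all genes tested. The median was -0.06 without Chow 8, -0.14 without HFD 38 and 0.12 without HFD 4. The ribosomal-like transcript CT010467.1 took 0.0127% to 0.0246% of the counts in Chow and 1.03% to 13.0% in HFD. Without it and the mitochondrial genes, 0 of the 10 were called and their median was 0.001. In the authors' deposited table the adjusted p of the 10 genes in this comparison lay between 0.9417 and 0.9917, while 0.378% of the genes in that table were under 0.05.

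After PCN, all 10 genes had a positive log2 fold change against HFD Vehicle, where 49.0% of all genes tested did. Their median was 0.36, beside -0.01 over all genes. Without HFD Vehicle 23 it was 0.19, with 9 of 10 positive. The edgeR test called 0 of the 10, and 10 of 16110 genes in all (0.0621%). Npc1l1, Abca1 and Scarb1 had no overlap between the groups, with PCN higher in each (9.84% of all genes), and the same 3 genes were past an unadjusted p of 0.05 (17.9% of all genes in either direction, 6.46% higher). DESeq2 called 1 of the 10, Abca1, and 1.93% of all genes. Against untreated HFD in place of HFD Vehicle, 8 of the 10 fold changes were positive with a median of 0.29, and edgeR called Abca1 alone of the 10 (0.325% of all genes). Both PCN comparisons use the same HFD PCN libraries. Between HFD Vehicle and HFD, edgeR called 0 of the 10 and 0 of all 16255 genes (0%), with 953 genes at an unadjusted p under 0.05 (5.86%) and 32 called by DESeq2 (0.18%). The 2 groups overlapped in each of the 10 members, while 9.92% of all genes had no overlap, 4.65% with HFD Vehicle higher. The members' median there was -0.09, with 3 of 10 positive. Among the fits that left out 1 library, the median reversed only without HFD Vehicle 23, to 0.08 with 7 of 10 positive. It was -0.23 with 0 of 10 positive without HFD 4, and -0.115 with 2 of 10 positive without HFD Vehicle 55. It was -0.02, -0.01 and -0.17 without HFD 30, HFD 38 and HFD Vehicle 50.

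**Figure D2:**
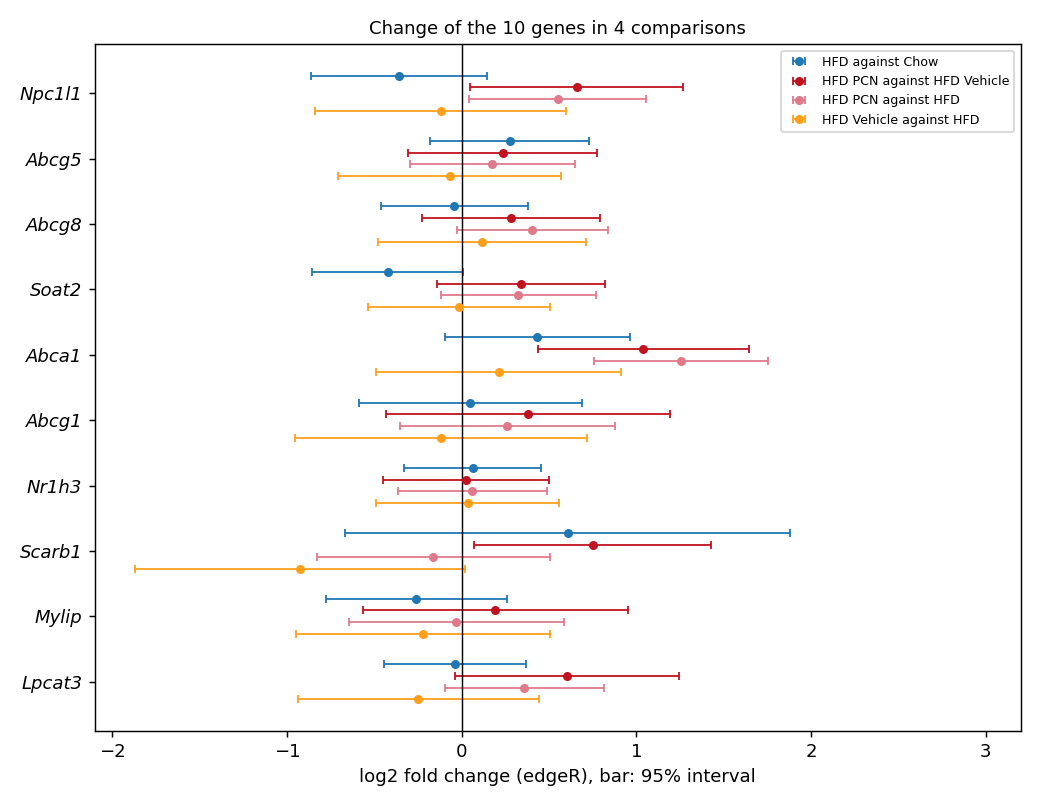
Log2 fold changes from edgeR (horizontal axis) of the 10 genes in 4 comparisons, drawn as points with 95% intervals as bars (6 libraries in each fit). The intervals of Abca1 lie above 0 in HFD PCN against HFD Vehicle (0.44 to 1.64) and against HFD (0.76 to 1.76), and those of Nr1h3 include 0 in each comparison.

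Abca1 had the largest PCN difference of the 10 genes against either control. Abca1 (ENSMUSG00000015243, chr4:53030787-53159895, minus strand, GRCm38) encodes the transporter that loads cholesterol and phospholipid onto apolipoprotein A-I. Its promoter is shown because LXRs are known to act on this gene through an element close to its start. In the RefSeq window of chr4:53159846-53160145 (GRCm38.p6, minus strand, 250 bases before to 50 after the start), capitals mark a direct repeat of the nuclear receptor half-site with a spacer of 4 bases (DR4) and an E-box.

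Abca1: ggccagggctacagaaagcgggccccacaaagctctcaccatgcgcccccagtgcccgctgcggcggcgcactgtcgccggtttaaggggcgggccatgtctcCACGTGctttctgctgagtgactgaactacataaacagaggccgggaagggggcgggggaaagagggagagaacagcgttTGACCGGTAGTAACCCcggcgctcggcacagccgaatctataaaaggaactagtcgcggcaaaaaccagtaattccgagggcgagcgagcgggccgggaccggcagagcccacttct

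The DR4 match lies at bases 184 to 199 of this window and reads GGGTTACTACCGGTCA on its opposite strand. A degenerate form of the DR4 motif, set wide enough to take in this element and searched on both strands, was found in 0.624% of 32544 distinct promoter windows. The E-box CACGTG, which is its own reverse complement, lies at bases 104 to 109 and occurs in 7.17% of the windows. Abca1 stood at 117, 104 and 166 CPM in Chow 8, 17 and 19, and at 118, 186 and 224 CPM in HFD 4, 30 and 38. Its level was 147, 187 and 273 CPM in HFD Vehicle 23, 50 and 55, and 438, 420 and 398 CPM in HFD PCN 5, 11 and 27. Each PCN library lay above each library of the other groups, while those 3 groups overlapped. How many of all genes have this pattern was not computed. The group means ran from Chow (129 ± 32.7 CPM) through HFD (176 ± 53.7) and HFD Vehicle (202 ± 64.2) to HFD PCN (419 ± 20.4, all SD, n = 3), and the highest was 3.24 times the lowest. Only the last step of that order separated neighbours.

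Against untreated HFD, Abca1 rose 2.39-fold after PCN (log2 1.26, SE 0.23, edgeR adjusted p = 0.0483). That call ended with limma-voom (1.33, adjusted p = 0.0578) and with all 12 libraries in 1 edgeR fit (1.26, adjusted p = 0.112). It also ended in edgeR without HFD 4, HFD 30, HFD PCN 5 or HFD PCN 11 (log2 1.06 to 1.28, adjusted p = 0.0916 to 0.199). It held with DESeq2 (1.27, adjusted p = 1.23e-05), and the log2 value was 1.06 or more in all 11 alternatives tried here, which were added after seeing the data. Against HFD Vehicle the fold was 2.06 (log2 1.04, SE 0.27), and the edgeR adjusted p of 0.231 did not pass. In that comparison DESeq2 called it (log2 1.06, adjusted p = 0.0170), as did edgeR with no filter on low counts (log2 1.07, adjusted p = 0.0162, 2.93% of all genes called). The authors' deposited table gives 0.97 with an adjusted p of 0.02819 (0.752% of its genes under 0.05). The call also depended on single libraries. Without HFD Vehicle 55, in which Abca1 was highest of the vehicle libraries and which has the lowest depth, edgeR gave 1.33 with an adjusted p of 0.00692, in a fit that called 22% of all genes. Without HFD Vehicle 23 and 50 together, the 2 vehicle libraries high in Hsp90aa1, a log2 value of 0.59 remained (edgeR). On the diet the value was 0.43 (SE 0.24, 95% interval -0.10 to 0.96, edgeR adjusted p = 0.537).

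Enterocyte markers were on the same side as the 10 genes after PCN. All 10 genes of a mature enterocyte list (among them Vil1, Alpi, Fabp2, Lct and Sis) had positive fold changes against HFD Vehicle, and edgeR called 0 of them. Their summed level was 9890 to 28221 CPM in HFD Vehicle and 27247 to 30315 CPM in HFD PCN, and none was under 1 CPM in every library. In mean log2 CPM the list differed by 0.65 (SE 0.40). In these bulk samples fewer cells of a type and less RNA per cell cannot be told apart. Relative to the mean of this list within each library, Abca1 was still higher by 0.44 (SE 0.20) than in HFD Vehicle and by 0.90 (SE 0.11) than in HFD on the log2 scale, with no overlap of libraries in either. On the same relative scale Abca1 was higher by 0.63 (SE 0.18) and Abcg5 by 0.457 (SE 0.185) in HFD than in Chow, both with no overlap. The other members overlapped between HFD and Chow. The share of all genes without overlap was not computed on this scale. The relative PCN differences of Npc1l1 and Lpcat3 against HFD Vehicle were 0.06 (SE 0.26) and 0.01 (SE 0.19), within their errors, and that of Scarb1 was 0.19 (SE 0.061) with no overlap. The other 6 genes were negative on this relative scale, at -0.27 (SE 0.24) for Abcg1, -0.31 (SE 0.34) for Soat2, -0.34 (SE 0.30) for Abcg8, -0.39 (SE 0.36) for Abcg5, -0.48 (SE 0.34) for Mylip and -0.62 (SE 0.47) for Nr1h3, each with overlap. Against HFD Vehicle, all 10 genes were thus positive after PCN on the CPM scale. Relative to the enterocyte list 4 of the 10 were positive, of which Npc1l1 and Lpcat3 lay within their errors. Against untreated HFD the relative difference was -0.45 (SE 0.52) for Scarb1, -0.03 (SE 0.17) for Lpcat3 and 0.18 (SE 0.22) for Npc1l1, each with overlap.

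Myeloid cells also use Abca1. The 12 macrophage and myeloid markers summed to 82.5 to 166 CPM in HFD Vehicle and 72.9 to 134 CPM in HFD PCN, and 10 of the 12 had negative fold changes after PCN. On the diet they summed to 106 to 174 CPM in Chow and 154 to 197 CPM in HFD, with 9 of 12 positive, of which Siglec1 rose (log2 1.73, edgeR adjusted p = 0.0481). Paneth cell markers had negative fold changes after PCN in 8 of 8 genes (0 called by edgeR), at 653 to 3027 CPM in HFD Vehicle and 317 to 678 CPM in HFD PCN. Untreated HFD held 278 to 742 CPM of this list. In HFD Vehicle against HFD the list was positive in 8 of 8 genes (median log2 2.20, 0 called). Fibroblast markers had negative fold changes after PCN in 6 of 6 genes, with 0 called, at 230 to 399 CPM in HFD Vehicle and 141 to 186 CPM in HFD PCN. Smooth muscle markers were negative in 6 of 6 genes after PCN, at 606 to 1153 CPM in HFD Vehicle and 558 to 673 CPM in HFD PCN, with 0 called. T and NK cell markers were positive after PCN in 8 of 8 genes (median log2 1.18, 16.3 to 79.1 CPM in HFD Vehicle and 68.5 to 110 CPM in HFD PCN). On the diet the same list was negative in 8 of 8 (median -1.28, 112 to 198 CPM in Chow and 34.1 to 92.3 CPM in HFD). The 6 pancreatic acinar markers tested were all negative in both comparisons, with medians of -3.31 on the diet and -2.20 after PCN. Their list summed to 37.3 to 84.0 CPM in Chow, 3.89 to 17.0 in HFD, 9.34 to 61.7 in HFD Vehicle and 1.81 to 15.0 CPM in HFD PCN, and edgeR called 0 genes of the T and NK cell and acinar lists. The part of these lists in the results of the 10 genes was not tested.

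Absorption was represented by Npc1l1 and Soat2. Npc1l1 (ENSMUSG00000020447, chr11:6211013-6230143, minus strand), the sterol uptake protein that ezetimibe blocks, stood at 377, 445 and 505 CPM in Chow and at 244, 456 and 342 CPM in HFD 4, 30 and 38. HFD Vehicle 23, 50 and 55 held 223, 416 and 316 CPM, and HFD PCN 5, 11 and 27 held 531, 470 and 516 CPM. The 3 PCN libraries were thus above the 6 other libraries of mice on the high-fat diet, while Chow 19 lay within their range. The group means were 318 ± 96.5 CPM in HFD Vehicle, 347 ± 106 in HFD, 443 ± 63.9 in Chow and 506 ± 32.0 in HFD PCN (SD, n = 3), and each neighbouring pair in this order overlapped. The log2 fold change after PCN was 0.66 against HFD Vehicle (SE 0.27, edgeR adjusted p = 0.263) and 0.55 against HFD (SE 0.23, edgeR adjusted p = 0.242), and neither passed. On the diet it was -0.36 (SE 0.23, edgeR adjusted p = 0.580).

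Soat2 (ENSMUSG00000023045, chr15:102150526-102163469, plus strand), the enterocyte and hepatocyte enzyme that makes cholesteryl ester, had 107, 89.0 and 124 CPM in Chow 8, 17 and 19 and 59.9, 78.9 and 101 CPM in HFD 4, 30 and 38. It had 68.3, 89.1 and 78.9 CPM in HFD Vehicle, and 119, 98.0 and 83.6 CPM in HFD PCN 5, 11 and 27. All neighbouring groups overlapped, and the highest mean was 1.35 times the lowest. Its diet value was the most negative of the 10 (log2 -0.42, SE 0.20, 95% interval -0.86 to 0.01, edgeR adjusted p = 0.485). After PCN it was 0.34 (SE 0.21, edgeR adjusted p = 0.396).

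Abcg5 and Abcg8 encode the 2 subunits of the canalicular and brush border sterol exporter, which is active only as the heterodimer. Abcg5 (ENSMUSG00000040505, chr17:84658234-84683011, minus strand) and Abcg8 (ENSMUSG00000024254, chr17:84676302-84700333, plus strand) are arranged head to head. Their annotated spans overlap by 6710 bases on opposite strands and their exons by 82 bases. The strand setting of the counting is not given in the sources used here, so reads from those bases could count for either gene or neither. The RefSeq start of Abcg5 at 84683011 and the one of Abcg8 at 84683121 are 110 bases apart, and the 300-base windows around them share 209 bases. RefSeq also gives Abcg8 a window at chr17:84676052-84676351, around its annotated start at 84676302, which lies within Abcg5. Of the Abcg8 windows, chr17:84682871-84683170 (plus strand, GRCm38.p6) is shown because it holds the region between the starts that are 110 bases apart.

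Abcg8: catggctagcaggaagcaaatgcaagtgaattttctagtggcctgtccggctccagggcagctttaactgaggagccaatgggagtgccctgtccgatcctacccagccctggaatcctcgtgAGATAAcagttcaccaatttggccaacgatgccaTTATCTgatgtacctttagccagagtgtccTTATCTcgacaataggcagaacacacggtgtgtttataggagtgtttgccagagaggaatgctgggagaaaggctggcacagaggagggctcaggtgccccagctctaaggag

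Capitals mark 3 matches to AGATAA, a form of the site bound by GATA factors, or to its reverse complement TTATCT, at bases 124 to 129, 158 to 163 and 188 to 193. All 3 are also in the window of Abcg5. At least 1 such match on either strand occurs in 11.2% of promoter windows. Neither window held the DR4 form searched, CACGTG or TCACNCCAC, a form of the sterol regulatory element (1.24% of windows).

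Abcg5 stood at 185, 225 and 235 CPM in Chow 8, 17 and 19, and at 182, 314 and 289 CPM in HFD 4, 30 and 38. In HFD Vehicle 23, 50 and 55 it stood at 201, 315 and 230 CPM, and in HFD PCN 5, 11 and 27 at 263, 298 and 322 CPM. Abcg8 followed with 158, 181 and 193 CPM in Chow, 124, 194 and 201 CPM in HFD, 148, 230 and 183 CPM in HFD Vehicle and 232, 224 and 230 CPM in HFD PCN, in the same order of libraries. For both genes all neighbouring groups overlapped, and HFD PCN had the highest mean (294 ± 29.6 CPM for Abcg5 and 229 ± 4.44 for Abcg8, SD, n = 3). After PCN the log2 fold change was 0.23 for Abcg5 (SE 0.24) and 0.28 for Abcg8 (SE 0.23), with edgeR adjusted p of 0.591 and 0.491. On the diet the values were 0.28 (SE 0.21) for Abcg5 and -0.04 (SE 0.19, 95% interval -0.46 to 0.38) for Abcg8, with edgeR adjusted p of 0.636 and 0.949. Among 13686 genes, Abcg8 was the one of rank 5 nearest to Abcg5 in its pattern over the 12 libraries, with a root mean square difference of 0.142 in centred log2 CPM.

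The balance of the 2 subunits did not overlap between Chow and HFD. The ratio of Abcg8 to Abcg5 counts within a library was 0.855, 0.806 and 0.820 in Chow 8, 17 and 19, and 0.682, 0.618 and 0.696 in HFD 4, 30 and 38. It was 0.734, 0.729 and 0.797 in HFD Vehicle and 0.883, 0.751 and 0.715 in HFD PCN. The Chow libraries all lay above the HFD libraries, and the HFD libraries were the lowest of the 12. The log2 ratio was lower in HFD than in Chow by a difference of -0.32 (SE 0.058, a ratio of 0.804 between groups), with a two-sided exact permutation p of 0.1, the smallest that 3 against 3 can give. Leaving out single libraries gave -0.35 to -0.26. HFD Vehicle against HFD gave 0.18 (SE 0.067, exact permutation p = 0.1) and HFD PCN against HFD Vehicle 0.05 (SE 0.101, exact permutation p = 0.700). This ratio was chosen with the values known, and 5 ratios in 4 comparisons made 20 tests, of which 9 reached 0.1. The adjusted value of those 9 was 0.222 (Benjamini-Hochberg), so that none passed.

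**Figure D3:**
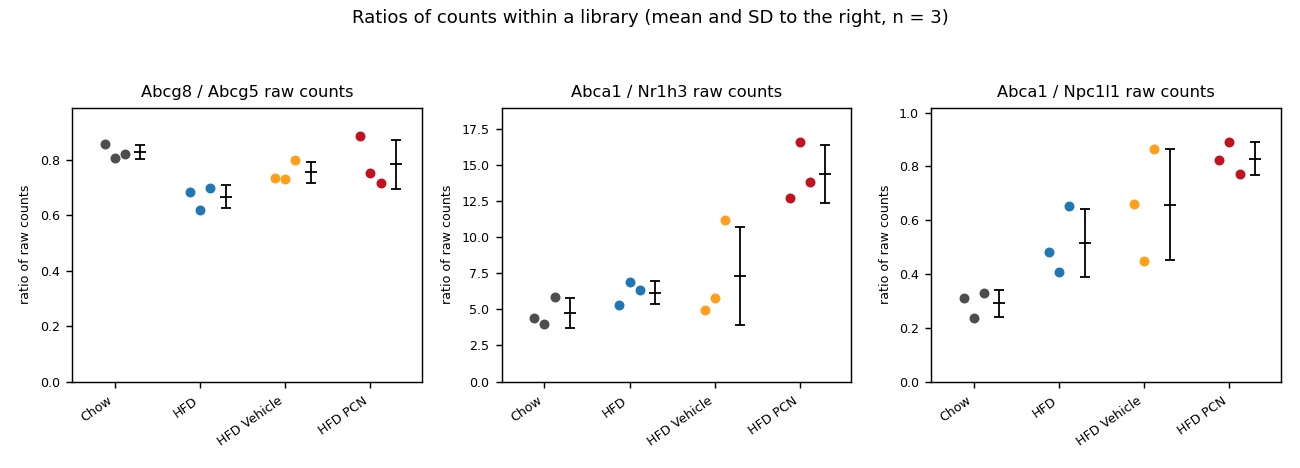
Ratios of raw counts within each library (vertical axes, from 0) of Abcg8 to Abcg5, Abca1 to Nr1h3 and Abca1 to Npc1l1, by group. Points are libraries and bars give the mean and SD (n = 3); Abcg8 to Abcg5 is 0.806 to 0.855 in Chow and 0.618 to 0.696 in HFD, and Abca1 to Npc1l1 is 0.235 to 0.329 in Chow and 0.407 to 0.654 in HFD.

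The ratio of Abca1 to Npc1l1 counts sets basolateral efflux beside uptake. It was 0.309, 0.235 and 0.329 in Chow 8, 17 and 19, and 0.483, 0.407 and 0.654 in HFD 4, 30 and 38. HFD Vehicle had 0.660, 0.450 and 0.864, and HFD PCN 0.825, 0.892 and 0.770. Every library of mice on the high-fat diet was above every Chow library. The log2 difference was 0.81 between HFD and Chow (SE 0.25, exact permutation p = 0.1) and 0.38 between HFD PCN and HFD Vehicle (SE 0.28, exact permutation p = 0.300, with overlap). Between HFD PCN and untreated HFD it was 0.71 (SE 0.21, exact permutation p = 0.1, without overlap). After adjustment none of these passed.

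Nr1h3 (ENSMUSG00000002108, chr2:91184061-91202834, minus strand), the gene of LXRα, was the steadiest. It stood at 26.6, 26.3 and 28.2 CPM in Chow, 22.2, 27.0 and 35.4 in HFD, 29.7, 32.2 and 24.4 in HFD Vehicle and 34.6, 25.3 and 28.9 CPM in HFD PCN. The groups overlapped throughout, and the highest mean was 1.09 times the lowest. Its log2 fold change was 0.06 on the diet (95% interval -0.33 to 0.46) and 0.03 after PCN (95% interval -0.45 to 0.50), with edgeR adjusted p of 0.921 and 0.961. It shares 34 exon bases with Gm13783 on the same strand. Abca1 counts per Nr1h3 count were 4.95, 5.80 and 11.2 in HFD Vehicle 23, 50 and 55 and 12.7, 16.6 and 13.8 in HFD PCN 5, 11 and 27, which did not overlap (log2 difference 1.06, SE 0.38, exact permutation p = 0.1).

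The remaining LXR targets of efflux and receptor turnover were scarce. Abcg1 (ENSMUSG00000024030, chr17:31057698-31115777, plus strand), which passes cholesterol to HDL in macrophages, had only 15 to 67 counts per library. Its level was 2.62 to 4.12 CPM in Chow, 3.17 to 3.83 in HFD, 2.07 to 4.37 in HFD Vehicle and 3.32 to 5.01 CPM in HFD PCN, with overlap throughout. Mylip (ENSMUSG00000038175, chr13:45389742-45412022, plus strand) encodes IDOL, a ubiquitin ligase of lipoprotein receptor turnover, and had 21 to 122 counts per library. Mylip stood at 6.80 to 7.03 CPM in Chow, 4.71 to 6.97 in HFD, 3.64 to 6.36 in HFD Vehicle and 4.32 to 7.54 CPM in HFD PCN. After PCN the log2 values were 0.38 (SE 0.36) for Abcg1 and 0.19 (SE 0.34) for Mylip (edgeR adjusted p = 0.562 and 0.766). The 95% interval was -0.43 to 1.19 for Abcg1, which takes in the 1.04 of Abca1, and -0.57 to 0.95 for Mylip.

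Lpcat3 (ENSMUSG00000004270, chr6:124663027-124704418, plus strand) places polyunsaturated acyl chains into membrane phospholipids, a step needed for lipid absorption. It stood at 140, 130 and 140 CPM in Chow 8, 17 and 19, and at 97.0, 141 and 164 CPM in HFD 4, 30 and 38. HFD Vehicle 23, 50 and 55 had 76.3, 103 and 158 CPM, and HFD PCN 5, 11 and 27 had 205, 159 and 151 CPM. HFD PCN lay above Chow without overlap, while HFD Vehicle 55 and HFD 38 reached into its range. The share of all genes without overlap between HFD PCN and Chow was not computed. The log2 fold change after PCN was 0.60 against HFD Vehicle (SE 0.29, edgeR adjusted p = 0.296). It was 0.94 (edgeR adjusted p = 0.0226) without HFD Vehicle 55, in a fit that called 22% of all genes. Without HFD Vehicle 23 and 50 it was 0.09. Its last 334 exon bases overlap Emg1 on the opposite strand.

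Scarb1 (ENSMUSG00000037936, chr5:125277087-125341094, minus strand) encodes SR-BI, the HDL receptor that also takes up dietary lipid in the proximal gut. It stood at 42.4, 42.1 and 15.0 CPM in Chow 8, 17 and 19, and at 39.7, 79.7 and 30.8 CPM in HFD 4, 30 and 38. HFD Vehicle 23, 50 and 55 had 14.3, 31.0 and 34.4 CPM, and HFD PCN 5, 11 and 27 had 46.4, 44.0 and 43.8 CPM. The PCN libraries were close together and above Chow and HFD Vehicle, but HFD 30 was the highest of the 12. For HFD PCN against Chow the share of all genes without overlap was not computed. The log2 fold change after PCN was 0.75 against HFD Vehicle (SE 0.30, edgeR adjusted p = 0.259) and -0.16 against untreated HFD (SE 0.30, edgeR adjusted p = 0.795). Against HFD Vehicle without HFD Vehicle 55 it was 0.98 (edgeR adjusted p = 0.0362), in a fit that called 22% of all genes. On the diet it was 0.61 with the widest interval of the 10 (95% interval -0.67 to 1.88, edgeR adjusted p = 0.699). Between HFD Vehicle and HFD it was -0.93 (SE 0.42, edgeR adjusted p = 0.803).

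Pdx1, a transcription factor of the proximal duodenum, was compared with Scarb1 after the values were seen. Pdx1 stood at 46.8, 38.1 and 15.1 CPM in Chow 8, 17 and 19, at 42.6, 70.8 and 18.3 CPM in HFD 4, 30 and 38, at 10.2, 28.0 and 32.0 CPM in HFD Vehicle 23, 50 and 55, and at 50.0, 58.3 and 31.3 CPM in HFD PCN 5, 11 and 27. In Chow, HFD and HFD Vehicle the libraries had the same order in Pdx1 as in Scarb1, with Chow 19 and HFD Vehicle 23 low and HFD 30 high in both. Of 13686 genes Pdx1 had rank 4 in likeness to Scarb1 over the 12 libraries (root mean square difference 0.305). Of the other proximal markers Onecut2 had rank 1409, Gata4 2219 and Fabp1 9965, while Slc40a1 (rank 13466) and Cybrd1 (rank 13557) were among the genes least like Scarb1. The 6 proximal markers summed to 656 to 2342 CPM in HFD Vehicle and 1861 to 3441 CPM in HFD PCN, with 5 of 6 fold changes positive (0 called by edgeR). The part of the sampled position along the gut in the Scarb1 values was not tested.

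**Figure D4:**
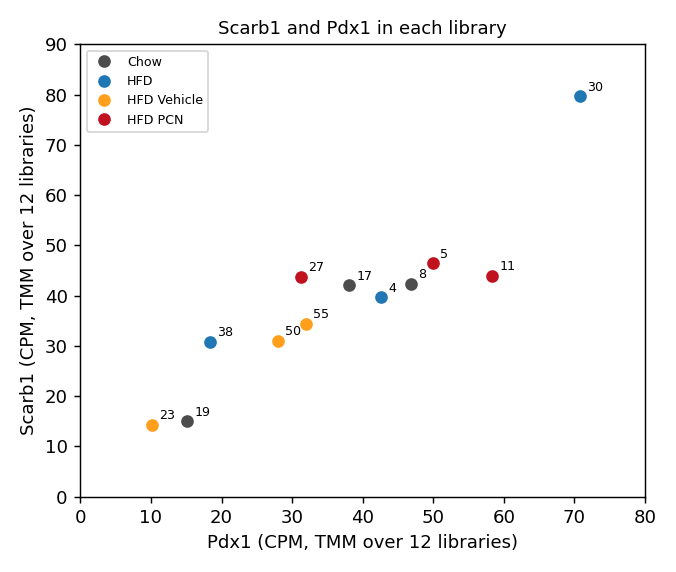
Scarb1 (vertical axis) against Pdx1 (horizontal axis), both in CPM scaled over 12 libraries, with each library as a point marked with its number and coloured by group. Chow 19 and HFD Vehicle 23 are low in both genes and HFD 30 is high in both; the HFD PCN libraries span 31.3 to 58.3 CPM of Pdx1 at 43.8 to 46.4 CPM of Scarb1.

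Likeness over the 12 libraries was measured for the other members in the same way, among 13687 genes with a mean of at least 20 counts. Nearest to Abca1 was Bnip3, a mitochondrial protein of mitophagy (root mean square difference 0.219), followed by Akr1c13 (0.339) and Rbbp8 (0.363). Bnip3 stood at 8.34, 9.38 and 12.4 CPM in Chow, 7.41, 14.1 and 14.3 in HFD, 10.1, 15.3 and 16.9 in HFD Vehicle and 28.1, 22.3 and 21.5 CPM in HFD PCN. As with Abca1, its PCN libraries were above the 9 others. The nearest genes were Mb21d2, Slc25a36 and Pbld2 for Npc1l1 (0.168 to 0.174), Nat8f4, Tmem98 and Glb1 for Abcg5 (0.098 to 0.125) and Emc7, Glb1 and Bmp2k for Abcg8 (0.115 to 0.125). They were Ppp2r5d, Rap1a and Casp6 for Soat2 (0.084 to 0.111) and Naaa, Mtif3 and Zbtb24 for Nr1h3 (0.117 to 0.123). A likeness over 12 libraries is a description of these samples.

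The other genes of sterol handling were read from lists, in which edgeR called none in either direction on the diet or after PCN. Of 9 LXR partners and cofactors 8 were tested, without Rxrg, which was under 1 CPM in every library. Of these, 3 were positive on the diet (median log2 -0.04) and 4 after PCN (median -0.03). The 2 with the smallest p were the corepressor Ncor1 (562 to 377 CPM, log2 -0.58, edgeR adjusted p = 0.393) and Rxrb on the diet. Rxrb, a partner of LXR, had a log2 fold change of 0.42 on the diet and was named again after PCN with -0.53. CPM in this paragraph and for the lists that follow were scaled within each comparison.

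Other LXR target genes lay on both sides of 0. Of 14 on the list, 10 were tested on the diet and 11 after PCN. On the diet 6 were positive (median 0.19), and after PCN 3 were (median -0.40, beside 0.005 on the diet and -0.01 after PCN over all genes). On the diet Apoe, an apolipoprotein, went from 67.6 ± 34.5 to 136 ± 21.1 CPM (log2 1.02, SE 0.32, edgeR adjusted p = 0.372) and the glucose-sensing factor Mlxipl from 151 to 260 CPM (log2 0.78). After PCN, Srebf1, the lipogenic factor that LXR drives, stood at 48.0 ± 9.93 CPM against 77.4 ± 25.7 in HFD Vehicle without overlap (log2 -0.69, SE 0.27, edgeR adjusted p = 0.252). HFD Vehicle was itself above untreated HFD in Srebf1 without overlap (78.8 ± 27.1 against 44.5 ± 8.73 CPM, edgeR adjusted p = 0.803). Scaled over all 12 libraries, HFD PCN held 39.4 to 61.7 CPM of Srebf1. This range took in HFD 30 and 38, at 47.1 and 55.1 CPM. The desaturase gene Scd1 stood at 26.1 ± 13.4 against 8.80 ± 3.23 CPM (log2 1.56, SE 0.44, edgeR adjusted p = 0.231). Scd1 is listed in the PCN table only and has no diet value here.

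Among 20 genes of NPC1L1 trafficking, sterol transport and esterification, 11 were positive on the diet (median 0.06) and 15 after PCN (median 0.29). Named by smallest p were the sterol carriers Stard4 (log2 -0.55) and Npc2 (0.40) on the diet, and Gramd1a (-1.20) and the ester hydrolase Nceh1 (0.64) after PCN. Of 12 genes of chylomicron and HDL assembly, 7 were positive on the diet (median 0.12) and 9 after PCN (median 0.29). The triglyceride synthases Dgat2 (0.76) and Dgat1 (0.29) were named on the diet. After PCN these were Sar1b, which coats chylomicron transport vesicles (69.9 to 142 CPM, log2 1.03, edgeR adjusted p = 0.231), and the lipid transfer protein Mttp (2041 to 3222 CPM, log2 0.66, edgeR adjusted p = 0.332). Of 19 genes of the SREBP2 pathway of cholesterol synthesis and uptake, 3 were positive on the diet (median -0.31) and 12 after PCN (median 0.12), with Fdft1 (-0.43) and Sqle (-0.59) named on the diet and Idi1 (0.98) and Insig1 (0.61) after PCN. Of 12 genes of phospholipid remodelling beside Lpcat3, 10 were positive on the diet (median 0.33, with Agpat1 at 0.41 and Agpat2 at 0.37). After PCN 6 were positive (median 0.02, with Mboat7 at -0.74 and Lpcat4 at -0.78).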

How the data were processed

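RNA from mouse duodenum was measured by sequencing in 12 libraries, 3 per group. The authors deposited raw counts per gene in 2 tables of 6 libraries each, with their own comparison (log2 fold change, p-value, adjusted p-value) beside them. The submitters' processing notes name the tools HISAT2, HTSeq and DESeq2 and the build GRCm38 (mm10); versions, annotation release, strand setting and read filters are not given in the sources used here. Coordinates are those of the deposited tables, counted from 1.

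The tests over all genes used the quasi-likelihood F-test of edgeR 4.0.16 (R 4.3.3; filterByExpr, TMM, robust dispersion) in separate fits of the 6 libraries compared. The threshold was 0.05 on p-values adjusted after Benjamini and Hochberg. HFD Vehicle against HFD and HFD PCN against HFD joined both tables on their shared genes. Standard errors are approximate (log2 fold change over the root of F). The fit was also run on simulated counts with the same dispersion for all genes, which cannot show how it behaves on these libraries. DESeq2 1.42.0, limma-voom (limma 3.58.1), RLE factors, no filter, a fit of all 12 libraries, a fit without mitochondrial and ribosomal-like genes (32 dropped) and leaving out libraries were the alternatives. Levels per kilobase used union exon lengths of GENCODE M21, as did gene overlaps. Promoter windows are from RefSeq (GRCm38.p6), where 7 of 10 genes matched; Soat2, Abcg1 and Scarb1 did not. Ratios were compared by exact permutation tests of log2 ratios. Columns of values without a sample numbered 0.

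The members, gene lists, alternatives and the rule for naming genes were chosen with earlier results of these data known. All 10 members are named; from each list the called genes (at most 4) or else the 2 with the smallest unadjusted p were named in the 2 main comparisons. For Abcg1, Scarb1, Mylip and Lpcat3 the nearest genes were not part of the rule. Some genes that the rule names are left out of the text.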

Additional observations from a re-analysis of the deposited data

How the results depend on the processing

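Counts of called genes moved with the setting. On the diet, 10 genes were called by edgeR, 134 by DESeq2, 351 without a filter, 6 by limma-voom and 2 with all 12 libraries in 1 fit; leaving out 1 library gave 4 (without Chow 8) to 63 (without HFD 38). After PCN, 10 became 339 with DESeq2, 843 without a filter, 34 with all 12 libraries, 4 without mitochondrial and ribosomal-like genes, 52 with untreated HFD as control and 2 without HFD Vehicle 23 and 50. Leaving out 1 library gave 0 (without HFD Vehicle 50 or HFD PCN 11), 5 (without HFD Vehicle 23) and up to 3697 (without HFD Vehicle 55). HFD Vehicle against HFD went from 0 to 32 with DESeq2, 1 without a filter, 1 with all 12 libraries and 6 without HFD Vehicle 23 and 50, and over 0 to 260 when 1 library was left out (260 without HFD Vehicle 55).

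Of the 10 sterol genes, 0 were called after PCN in the fit reported, and 1, Abca1, with DESeq2, without a filter and with untreated HFD as control. Leaving out 1 library gave 0 to 3. The 3 were Abca1, Scarb1 and Lpcat3 without HFD Vehicle 55, where 22% of all genes were called. In the diet comparison 114 of the members' fold changes kept their direction and stayed uncalled, and 6 reversed. After PCN 126 kept their direction and stayed uncalled, 6 kept their direction and passed the threshold, and 8 reversed. Between HFD Vehicle and HFD 109 kept their direction and stayed uncalled, and 21 reversed. After PCN Scarb1 became -0.16 and Mylip -0.031 with untreated HFD as control, and Abcg1 -0.11 and Mylip -0.19 without HFD Vehicle 23 and 50. Between HFD Vehicle and HFD, Soat2 became 0.005 with limma-voom and 0.005 without HFD Vehicle 23 and 50, where Abcg1 became 0.36, Nr1h3 -0.19, Mylip 0.16 and Lpcat3 0.26. Leaving out single libraries, log2 values ranged on the diet from -0.15 to 0.12 for Abcg8, -0.094 to 0.21 for Abcg1, -0.12 to 0.17 for Nr1h3 and -0.20 to 0.12 for Lpcat3. After PCN they ranged from -0.073 to 0.38 for Mylip and -0.10 to 0.13 for Nr1h3. Between HFD Vehicle and HFD they ranged from -0.35 to 0.11 for Npc1l1, -0.27 to 0.07 for Abcg5, -0.072 to 0.26 for Abcg8, -0.18 to 0.18 for Soat2, -0.094 to 0.42 for Abca1, -0.38 to 0.14 for Abcg1 and -0.11 to 0.22 for Nr1h3. The cause was not tested.

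No paired analysis was possible because the groups share no replicate numbers. Where 1 vehicle library was left, it was assumed to vary like the other group. Counting depth limits Abcg1 and Mylip most. With 3 libraries a group, an exact permutation test cannot go below 0.1.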

Other observations

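No gene passed edgeR's test between HFD Vehicle and untreated HFD, and the values below were chosen after they were seen. CPM below were scaled within this comparison, so that they differ slightly from values of the same group given above. Of 19 SREBP2 pathway genes, 18 had a positive log2 fold change in HFD Vehicle against HFD (median 0.55, beside 0.01 over all genes), 8 of them at an unadjusted p under 0.05, where 5.86% of all genes were in either direction, and edgeR called 0. Insig2, which retains SREBP in the endoplasmic reticulum, was the 1 gene on the other side, at 11.6 ± 2.94 CPM in the vehicle libraries and 18.9 ± 2.99 CPM in HFD without overlap (log2 -0.71, SE 0.27, edgeR adjusted p = 0.803). Fdft1, squalene synthase, stood at 29.3 ± 7.19 CPM in the vehicle libraries against 14.4 ± 1.59 CPM in HFD (SD, n = 3; log2 1.03, SE 0.25, edgeR adjusted p = 0.803). Srebf1 stood at 78.8 ± 27.1 against 44.5 ± 8.73 CPM (log2 0.82, SE 0.28) and the fatty acid synthase gene Fasn at 163 ± 72.6 against 89.8 ± 24.0 CPM (log2 0.86, SE 0.34), both without overlap and with an edgeR adjusted p of 0.803. Over all genes tested, the HFD Vehicle libraries were above HFD without overlap in 4.65%. In the same contrast Npc1l1 was at -0.12 (SE 0.32), Abca1 at 0.21 (SE 0.31) and Abcg5 at -0.07 (SE 0.28). HFD Vehicle shares its libraries with the PCN comparison, in which they are the controls. Scaled over all 12 libraries, the SREBP2 pathway list summed to 616 to 770 CPM in HFD and 849 to 1112 CPM in HFD Vehicle. In HFD PCN the list summed to 980 to 1145 CPM, so that both injected groups lay above untreated HFD. Chow held 693 to 859 CPM of it.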
